A study of Mus musculus with 4 samples.

Results

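This report covers 32 mouse genes of the p53 pathway and of apoptosis, taken by symbol from a list. That list was chosen with earlier results of these data known. It holds Trp53 and its inhibitor Mdm2, 12 transcriptional targets of p53, 11 genes of the Bcl2 family and 7 caspase and apoptosome genes. Probes were assigned to a member by the array's gene name or through accessions matched to RefSeq, and each gene took the brightest of its measured probes, those that on each array were well above background in 1 genotype or both. All 32 members had such a probe, out of 18607 measured genes. The samples were distal pieces of mouse embryos that contained the node, cut at the early headfold stage (~E7.75) on a hybrid Sv129/CD-1 background; the titles and the protocol differ on how much of the embryo was cut off. By the sample labels, all embryos had GFP at the Noto locus, which encodes a homeodomain protein made in the node. The homozygotes (Noto GFP/GFP) had it on both copies. The heterozygotes (Noto GFP/+), which served as controls, had it on 1 copy. The series' design text calls the controls wildtype, and the values analysed here do not settle this. The labels were followed, and by them no group without the insertion was measured.

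The 4 samples were 2 two-colour Agilent arrays, each with RNA of both genotypes; the homozygote carried Cy5 on array 1 and Cy3 on array 2. Pieces were pooled in lots of 120 to 150, and the labels name the second array a technical replicate with exchanged dyes. There was therefore 1 RNA pool per genotype and no biological replicate, so no significance test was made. Each ratio is the log2 of homozygote over heterozygote on an array, with the mean ± SD over the 2 arrays (n = 2), which measures technical spread only. For some genes it is said whether the levels of the genotypes overlapped across arrays. The share of all genes without such overlap was not counted. A gene was called higher or lower when both arrays gave a difference of at least 1.5-fold (a log2 ratio of 0.58) that ran the same way. In pooled tissue, fewer cells of a type and less RNA per cell cannot be told apart.

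The p53 protein is a transcription factor that Mdm2, a ubiquitin ligase and itself a p53 target, keeps at a low level in unstressed cells. After DNA damage or other stress p53 accumulates and switches on genes that stop the cell cycle, repair DNA or start cell death. In the mitochondrial route to apoptosis, BH3-only proteins free Bax and Bak to release cytochrome c, Apaf1 assembles the apoptosome around it and caspases are activated. The early mouse embryo is known to be sensitive to p53: loss of Mdm2 is lethal unless p53 is also lost.

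No member differed by 1.5-fold between the genotypes on both arrays. Of the 32 members, 0 were called higher and 0 lower, against 0.0591% of all measured genes called higher and 2.35% called lower (2.41% in either direction, 11 genes higher and 437 lower). The split was 101 higher and 713 lower with the software's own log ratio, and 95 and 651 with the deposited value table. Without turning array 2, so that the ratio followed the dye, 0.0752% of genes passed the same rule. On the brightest probes the member means ran from -0.30 (Fas) to 0.30 (Zmat3), and the largest ratio on a single array was 0.48 in size. Dimmer probes went further on a single array, to -0.73 for Trp53 on array 2 and -0.54 for Diablo on array 1. Ratios lay above 0 on both arrays for 13 members and below 0 on both for 3, and had opposite signs on the 2 arrays for 16. Among all measured genes 25.7% lay above 0 on both arrays and 34% below 0 on both. Among the genes brighter than the median, where 27 of the 32 members fell, these shares were 24.5% and 25.1%, and 0.0215% were called higher, 0.634% lower and 0.656% in either direction. The mean exceeded its SD over the arrays in 12 members (37.5%), against 49.9% of all measured genes and 39.6% of the brighter ones. Across the 32 members the ratios of the 2 arrays had a Pearson r of -0.00, beside 0.50 across all measured genes and 0.13 across the brighter ones; genes share the arrays and are not independent replicates.

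**Figure D1:**
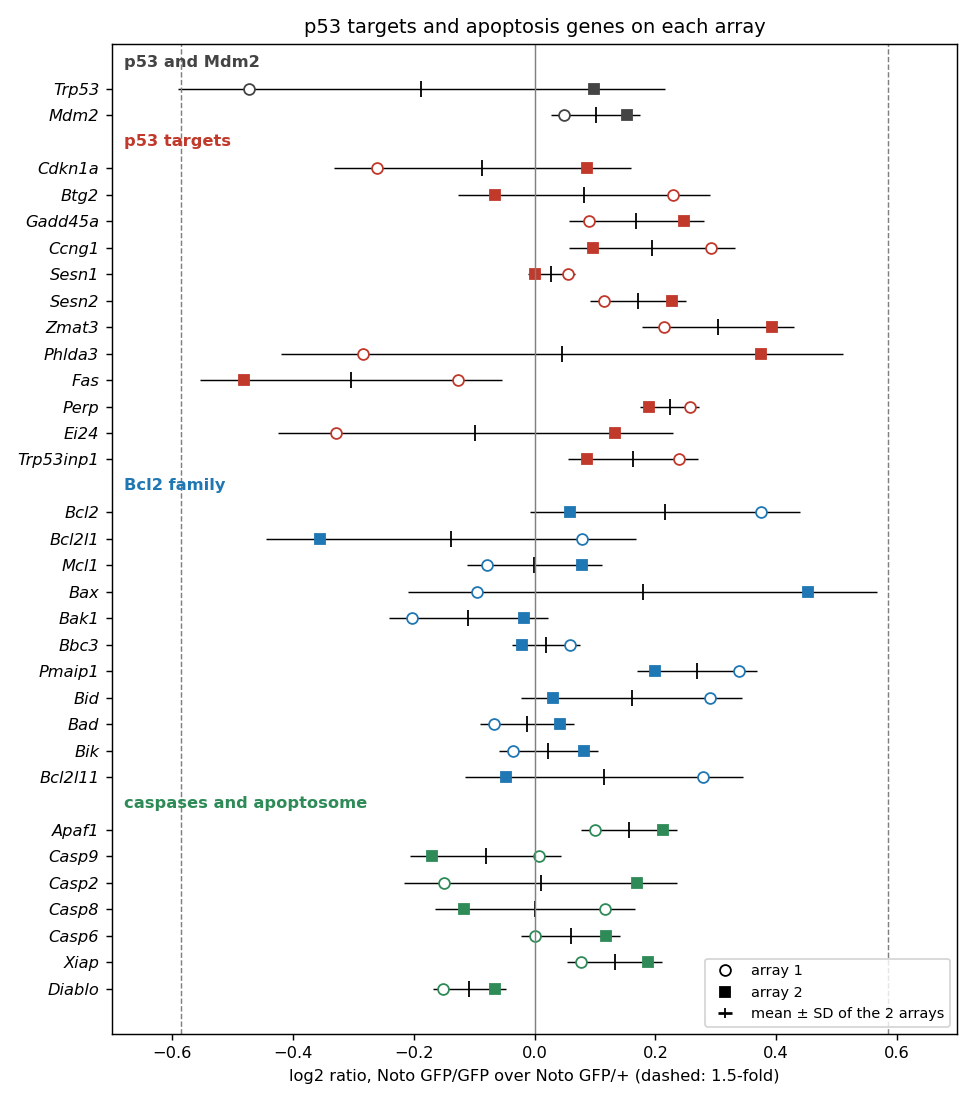
Log2 ratio of homozygote over heterozygote (x axis) for each of the 32 members (y axis, grouped by role), with open circles for array 1, filled squares for array 2 and black bars for the mean ± SD of the 2 arrays. No point reaches the dashed lines at 1.5-fold, and 16 members have their 2 arrays on opposite sides of 0.

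Trp53, which encodes p53, was measured on array 1 at log2 levels of 13.04 in the homozygote and 13.52 in the heterozygote, and on array 2 at 13.46 and 13.36. The homozygote was thus the lower sample on array 1 and the slightly higher one on array 2, with ratios of -0.47 and 0.10 and a mean of -0.19 ± 0.40. With each array centred on its median in place of the intensity-dependent loess curve, the mean turned to 0.02, where the median of all genes was 0.12. A second, dimmer Trp53 probe (mm8 chromosome 11, 69396652 to 69396710) read -0.36 and -0.73, below 0 on both arrays and short of the size rule on array 1.

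Mdm2 was measured at log2 levels of 13.95 (homozygote) and 13.90 (heterozygote) on array 1; on array 2 it stood at 14.34 and 14.19. The homozygote was the higher sample on each array, but the groups overlapped across arrays. Its ratios were 0.05 and 0.15, with a mean of 0.10 ± 0.07, and a second probe read 0.45 and 0.15. The oligonucleotides below are those of Trp53 and Mdm2 that were printed at 10 spots on each array, which gives these genes a measure of error within an array. Their positions are on build mm8 at chr11:69405827-69405886 (plus strand) and chr10:117095662-117095721 (minus strand).
Trp53: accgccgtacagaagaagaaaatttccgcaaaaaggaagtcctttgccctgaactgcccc
Mdm2: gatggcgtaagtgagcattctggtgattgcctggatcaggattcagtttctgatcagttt

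The 12 p53 targets had a median of 0.12 ± 0.01 (SD of the medians on each array), beside -0.02 ± 0.01 for all measured genes and -0.00 ± 0.01 for the brighter ones. The centre of such a value is the median of the 2-array means of the genes. Both array medians, here 0.10 and 0.11, can therefore lie to 1 side of it, and the SD is not a spread around it. Of the 12, 6 lay above 0 on both arrays, 1 lay below 0 on both and 5 had opposite signs; 0 were called. Zmat3, an RNA-binding zinc finger protein and p53 target, had the highest mean of all members (mm8 chromosome 3, 32526458 to 32526517). On array 1 the log2 level was 13.76 in the homozygote and 13.55 in the heterozygote, and on array 2 it was 14.21 and 13.82. The homozygote was higher within each array by 0.21 and 0.39 (mean 0.30 ± 0.13), while across arrays the 2 groups overlapped.

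Perp, a desmosomal membrane protein that p53 can use in cell death (mm8 chromosome 10, 18546307 to 18546366), stood at 13.62 in the homozygote and 13.37 in the heterozygote on array 1 (log2 levels), and at 13.30 and 13.11 on the second. It was higher in the homozygote within each array, at 0.26 and 0.19 (0.22 ± 0.05), and overlapped across arrays. Ccng1, the cyclin G1 gene, read 0.19 ± 0.14, and its second probe 0.27. The sestrin gene Sesn2, which acts in the response to oxidative and nutrient stress, read 0.17 ± 0.08, and its second probe 0.01, with ratios of -0.03 and 0.05. Gadd45a, a growth arrest gene induced by DNA damage, read 0.17 ± 0.11, and Trp53inp1, a nuclear cofactor of p53, 0.16 ± 0.11. The second Trp53inp1 probe read -0.20 and 0.34, with a mean of 0.07. On their brightest probes these 6 were the targets above 0 on both arrays.

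Fas, the death receptor, was the target below 0 on both arrays (mm8 chromosome 19, 34393409 to 34393468). Its log2 levels were 7.81 in the homozygote and 7.94 in the heterozygote on array 1, and 7.65 and 8.13 on array 2. Both homozygous readings, which came from 1 pool, lay below both heterozygous ones, also from 1 pool. The ratios were -0.13 and -0.48, with a mean of -0.30 ± 0.25. Fas was also the dimmest member, brighter than only 13.4% of measured genes, and on the whole array set dim genes lay below 0 more often than bright ones.

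Cdkn1a, which encodes the cell cycle inhibitor p21 and is the best-known p53 target, showed no steady direction. Its log2 levels were 11.55 (homozygote) and 11.81 (heterozygote) on array 1 and 11.48 and 11.39 on array 2, so the order of the genotypes reversed between the arrays. The ratios were -0.26 and 0.09 (mean -0.09 ± 0.25). Ratios of opposite sign were also found for Phlda3, a repressor of Akt signalling (-0.28 and 0.37), and for Ei24, an endoplasmic reticulum membrane protein (-0.33 and 0.13). The anti-proliferative gene Btg2 read 0.23 and -0.07, and Sesn1, the other sestrin, read 0.06 and -0.00.

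The Bcl2 family, whose members guard or permeabilise the mitochondrial outer membrane, had a median of 0.02 ± 0.01 over 11 genes. Its array medians were both higher than that, at 0.06 and 0.04. Of the 11 genes, 3 lay above 0 on both arrays, 1 lay below on both and 7 had opposite signs. Among the BH3-only genes Pmaip1, which encodes Noxa and is a p53 target, stood highest. Its log2 levels were 15.24 (homozygote) and 14.90 (heterozygote) on array 1 and 15.28 and 15.08 on array 2. Both homozygous readings, which came from 1 pool, lay above both heterozygous ones, also from 1 pool. The ratios were 0.34 and 0.20 (mean 0.27 ± 0.10). Bid, which links death receptors to mitochondria, read 0.16 ± 0.18, with ratios of 0.29 and 0.03. Bbc3, which encodes Puma, the other strong p53-induced killer, read 0.02 ± 0.06. Bcl2l11, which encodes Bim, read 0.11 ± 0.23, Bik 0.02 ± 0.08 and Bad -0.01 ± 0.08; each of these had opposite signs on the 2 arrays, as did Bbc3.

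Of the pore-forming members, Bax read -0.10 and 0.45 (0.18 ± 0.39) and Bak1 -0.20 and -0.02 (-0.11 ± 0.13). The survival genes shared no sign. Bcl2 stood at 11.28 in the homozygote and 10.91 in the heterozygote on array 1 (log2 levels), and at 10.90 and 10.84 on the second. It was higher in the homozygote on each array by 0.37 and 0.06 (0.22 ± 0.22), with overlap across arrays, but its other 2 probes read -0.11 and -0.14, and the mean of its 3 probes was -0.01. Bcl2l1, which encodes Bcl-xL, read 0.08 and -0.36 (-0.14 ± 0.31), but its other 2 probes read 0.16 and 0.17, and the mean of its probes was 0.06. Mcl1, a short-lived guard that early embryos need, read -0.08 and 0.08 (-0.00 ± 0.11).

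The caspase and apoptosome genes had a median of 0.01 ± 0.08 over 7 genes, the 2 array medians being 0.01 and 0.12. Apaf1, the scaffold of the apoptosome, read 0.10 and 0.21 (0.16 ± 0.08), and its second measured probe 0.30. Xiap, the caspase inhibitor (listed under its older name Birc4), read 0.08 and 0.19 (0.13 ± 0.08). Diablo, a mitochondrial protein that relieves inhibition by Xiap, read -0.15 and -0.07 (-0.11 ± 0.06), and its second probe lay lower, at -0.48 ± 0.08. Among the caspases, the executioner Casp6 read 0.06 ± 0.08. The initiators Casp9 (-0.08 ± 0.13), Casp2 (0.01 ± 0.23) and Casp8 (0.00 ± 0.17) had opposite signs on the 2 arrays. Median centring, which moved the median of all measured genes from -0.02 to 0.12, also brought other means from below 0 to above it. Bak1 and Ei24 came to 0.12, Cdkn1a, Casp9 and Diablo to 0.10, Bad to 0.09 and Bcl2l1 to 0.06, none higher than that median, while Mcl1, at -0.00 before, came to 0.20.

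Replicate spots separated the error within an array from the gap between arrays. The 7 member probes with 10 spots (Trp53, Mdm2, Cdkn1a, Fas, Bcl2, Bcl2l1 and Bax) had a spot SD of 0.02 to 0.10 on an array, after spots marked as outliers were left out. Their array means differed by 0.30 to 0.57. For Trp53 the 10 spots ran from -0.51 to -0.43 on array 1 and from 0.05 to 0.13 on array 2. For Bax they ran from -0.17 to -0.01 on array 1 (9 spots) and from 0.38 to 0.50 on array 2. In all 7 the spots of the 2 arrays did not overlap, which held for 112 of the 245 probes printed at least 5 times, dim ones included (45.7%). Over those 245 probes the median gap between arrays was 0.16, beside median spot SDs of 0.06 and 0.04. For each of the 7 members the gap between arrays was larger than the spot SD. Array, slide and dye orientation changed together and cannot be told apart. Every spot lay above 0 on both arrays for the 10-spot probes of Mdm2 and Bcl2 and below 0 on both for that of Fas.

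**Figure D2:**
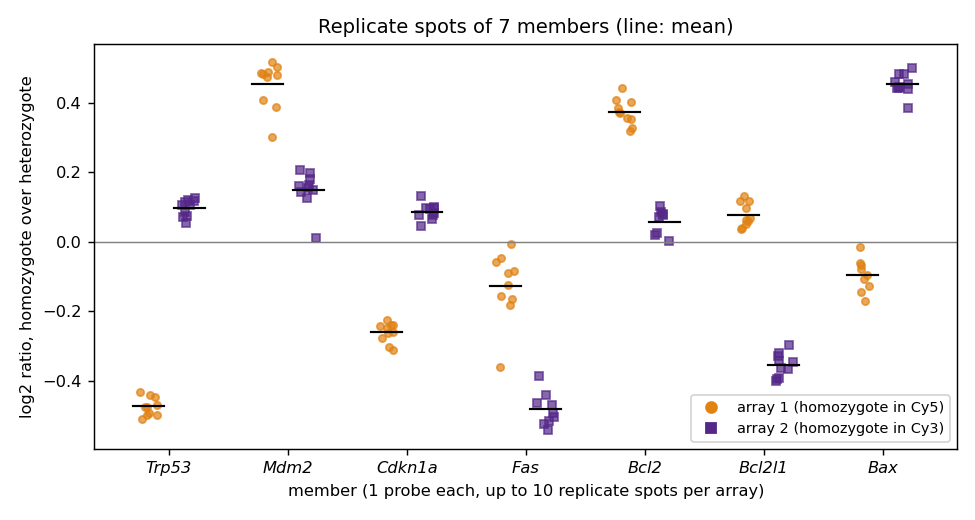
Log2 ratio of homozygote over heterozygote (y axis) at each replicate spot of 7 members (x axis), circles for array 1 and squares for array 2, with a line at the mean of each array. Spots cluster tightly within an array and do not overlap between arrays; Trp53 centres on -0.47 and 0.10, and Bax on -0.10 and 0.45.

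Several members could be read by more than 1 probe. Of 53 measured member probes 0 were called, counting every probe of the 32 genes. Among the 16 members with at least 2 measured probes, 7 had all probe means above 0 (Mdm2, Ccng1, Sesn1, Sesn2, Trp53inp1, Bcl2l11 and Apaf1) and 3 all below 0 (Trp53, Bak1 and Diablo). The other 6 (Btg2, Bcl2, Bcl2l1, Mcl1, Bad and Xiap) had probes of opposite sign, in no case with means at least 0.2 from 0 on each side. The widest spreads between probes were 0.37 for Diablo, 0.36 for Bcl2 and 0.36 for Trp53. Sesn1 ran from 0.03 on its brightest probe to 0.35 on its dimmest.

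**Figure D3:**
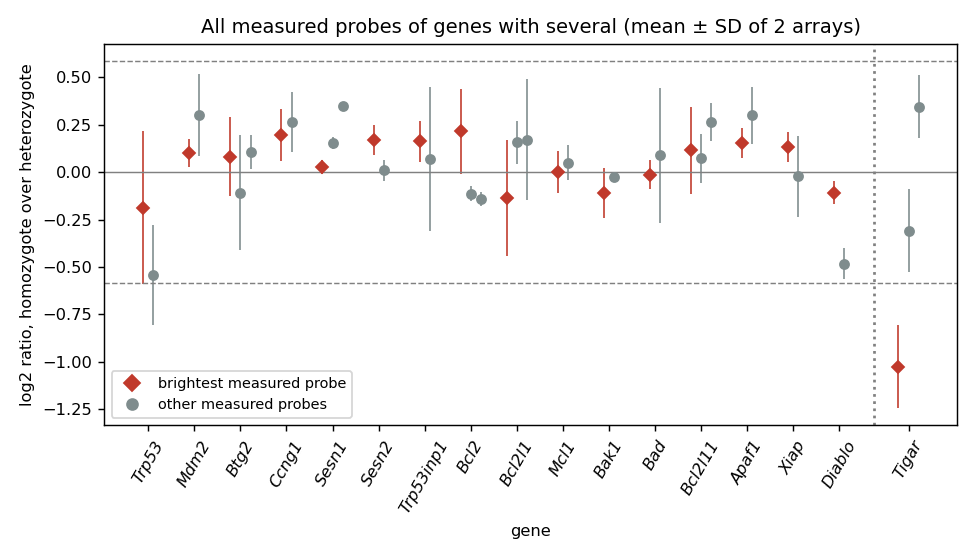
Mean log2 ratio ± SD of the 2 arrays (y axis) for every measured probe of the 16 members with several and of Tigar (x axis, right of the dotted line); diamonds mark the brightest probe. Dashed lines mark 1.5-fold, and the brightest Tigar probe, at -1.03, is the only mean beyond them.

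The median of the 2-array means was higher for the p53 targets than for the Bcl2 family, by 0.10. The gap was smaller on array 1 alone (0.044), on array 2 alone (0.072) and with the software's log ratio (0.022). With the deposited value table that order turned, at -0.02. Nor did the order of the groups hold on each array: on array 2 the median was 0.115 for the targets, 0.118 for the caspase and apoptosome genes and 0.125 for the pair Trp53 and Mdm2. Counting Mdm2, Bbc3, Pmaip1 and Bax as targets too, the median over 16 genes was 0.13 ± 0.05. The difference between the groups was not tested, since the members of a list are not replicates. Relative to the median of all measured genes, the targets lay 0.14 higher, 0.085 higher with the value table and 0.20 higher with median centring. Under median centring 4 of 12 lay above 0 on both arrays, beside 18.2% of all genes. Zmat3, Perp, Gadd45a and Apaf1 lay above 0 on both arrays under each of 6 settings, namely the one used here, the mean of probes, median centring, no background correction, the value table and the software's log ratio. Fas lay below 0 on both arrays under each of the 6. Pmaip1, Mdm2, Ccng1, Sesn2, Trp53inp1, Bid, Casp6 and Xiap lay above 0 on both under 5, and Bak1 and Diablo below 0 on both under 5. The 6 settings reuse the same 2 arrays, and the share of all measured genes that kept their side is not given here.

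**Figure D4:**
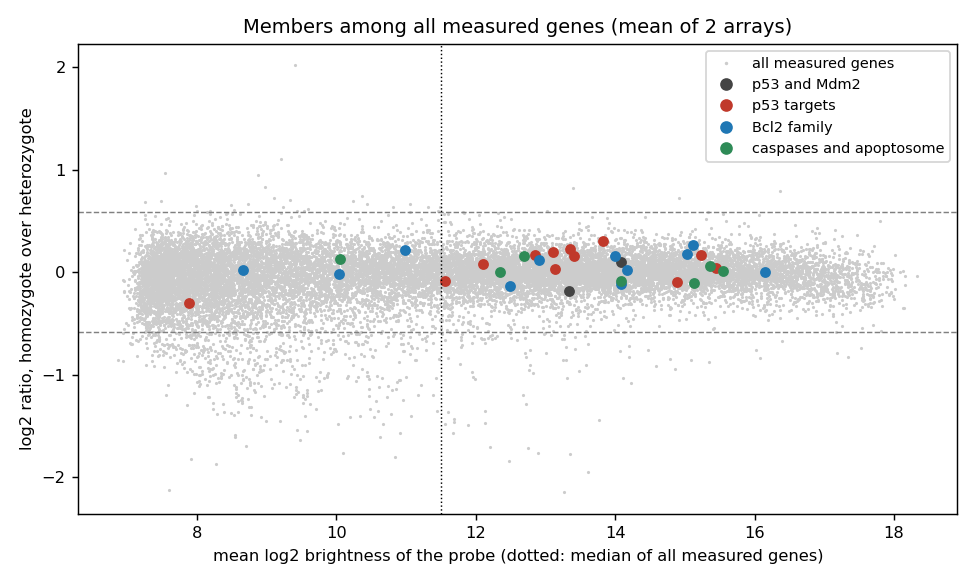
Mean log2 ratio of homozygote over heterozygote (y axis) against the mean log2 brightness of the probe (x axis) for all 18607 measured genes in grey and the 32 members in colour by group; dashed lines mark 1.5-fold and the dotted line the median brightness. The 32 members lie inside the dashed lines, 27 of them right of the dotted line; of the 448 genes called on both arrays, 437 are lower in the homozygote and 59 of these lie right of the dotted line.

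The promoters of the p53 targets are shown because a p53 binding decamer is what a direct target may hold. RefSeq windows on GRCm38.p6, from 250 bases before to 50 after the start, were found for 27 of the 32 members (37 windows). The p53 decamer, searched by its consensus on both strands, was present for 5 of 9 targets with a window and for Trp53, Mdm2 and Bax, 8 of 27 members in all (29.6%). The share among all genes with a window was 9.55%. None of the 7 caspase and apoptosome genes held it in the window searched. A pair of decamers with a gap of at most 13 bases was found for 1 member, Cdkn1a, with a gap of 12 bases, and for 0.0740% of all genes. The search allowed no mismatch. The bases directly after the second Cdkn1a decamer (tgacatgttc) differ from the consensus only at their first base, and were not marked or counted in a pair. A gene counted when any of its windows held a match. Cdkn1a and Sesn1 each had a further window, at another start, without a decamer. The GC box GGGCGG was present for 22 members (81.5%) against 38.2% of all genes, and the TATA box TATAAA for 2 (7.41%) against 15.7%. Members had more windows per gene than all genes did. Counted by window, the shares were 21.6% against 8.36% for the decamer, 73.0% against 35.7% for the GC box and 5.41% against 13.6% for the TATA box. All genes here means every gene with a window, measured or not. The targets with a decamer read from -0.10 (Ei24) to 0.19 (Ccng1), and a match is a description, not a site. Each stretch below runs 5′ to 3′ along its gene's strand, with up to 20 bases on either side and none after the start, and capitals mark the decamer.
Cdkn1a (chr17:29090886-29090957, plus strand): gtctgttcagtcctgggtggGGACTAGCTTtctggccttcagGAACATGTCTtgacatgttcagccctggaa
Ccng1 (chr11:40755442-40755491, minus strand): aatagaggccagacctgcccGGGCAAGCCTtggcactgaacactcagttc
Gadd45a (chr6:67037418-67037467, minus strand): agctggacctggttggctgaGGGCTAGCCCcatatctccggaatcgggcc
Sesn1 (chr10:41887246-41887295, plus strand): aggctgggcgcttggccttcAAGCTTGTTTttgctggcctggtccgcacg
Ei24 (chr9:36797335-36797364, minus strand): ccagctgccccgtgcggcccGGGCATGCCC
Mdm2 (chr10:117710915-117710964, minus strand): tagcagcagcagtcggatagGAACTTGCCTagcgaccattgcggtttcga
Trp53 (chr11:69580264-69580313, plus strand): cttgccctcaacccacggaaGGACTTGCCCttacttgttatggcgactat
Bax (chr7:45467070-45467119, minus strand): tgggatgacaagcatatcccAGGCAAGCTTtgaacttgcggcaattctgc

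Beyond the members, 38 other genes of the p53 pathway were listed, of which 36 were measured. Their median was 0.02 ± 0.00, with array medians of 0.044 and 0.047. Of the 36, 14 lay above 0 on both arrays and 7 below. By the size rule 0 were called higher and 1, Tigar, lower, beside the 2.35% of all genes called lower. Tigar is a p53 target whose protein lowers glycolytic flux. On its brightest probe (mm8 chromosome 6, 127053088 to 127053147) the log2 levels were 11.58 (homozygote) and 12.45 (heterozygote) on array 1 and 11.32 and 12.50 on array 2. Both homozygous readings, which came from 1 pool, lay below both heterozygous ones, also from 1 pool. The ratios were -0.87 and -1.18 (-1.03 ± 0.22). The other 2 measured Tigar probes read -0.31 ± 0.22 and 0.35 ± 0.16, so the call rests on 1 probe of 3. It was lost with the mean of probes (-0.33) and with median centring, which gave -0.40 on array 1. Next in size were Steap3 (0.30 ± 0.02), a metalloreductase, the p53 relative Trp73 (0.29 ± 0.07) and the receptor gene Eda2r (0.27 ± 0.29).

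Of 33 further apoptosis genes 29 were measured, with a median of -0.01 ± 0.05 and array medians of -0.02 and -0.09. Of these, 5 lay above 0 on both arrays and 11 below, and 0 were called. Cflar, which encodes the caspase 8 inhibitor c-FLIP, read 0.31 ± 0.08. The mitochondrial death and mitophagy genes Bnip3 (-0.30 ± 0.30) and Bnip3l (-0.25 ± 0.27) lay below 0 on both arrays.

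Across the arrays, 64.0% to 81.5% of gene spots were well above background in a dye and 0 were saturated. The software's ratios were compressed, as its log ratios of spiked-in RNAs rose by only 0.809 (array 1) and 0.705 (array 2) per unit of their known log ratio. The compression of the ratios reported here was not measured. All 9 node and notochord markers listed were measured, with 0 called; 5 lay below 0 on both arrays (Foxj1 at -0.52, Lefty1 at -0.51, Shh at -0.44, Nog at -0.40 and Dand5 at -0.09) and 2 above (T at 0.33 and Chrd at 0.08). Foxj1 and Lefty1 passed 1.5-fold on array 1 alone. The tissue markers called were 3 of 8 measured erythroid genes (the adult globins, lower), Prl8a2 of 5 decidua and trophoblast genes (higher) and Meox1 of 5 paraxial mesoderm genes (lower). Of all measured genes 0.0591% were called higher and 2.35% lower. The lists did not run 1 way. On both arrays, 1 erythroid gene lay above 0 and 6 below. For decidua and trophoblast it was 2 above and 2 below (Plet1 at -0.53 and Elf5 at -0.26). For neural and surface ectoderm, with 0 called, it was 2 above and 4 below. The part of these markers in the members' ratios was not tested. The level of Noto was not analysed here, which leaves the genotype labels without that check.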

How the data were processed

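Per the file headers, the authors read the arrays with Agilent Feature Extraction 9.5.3.1, which deposited spot and background intensities, processed intensities, a log10 ratio of red over green and quality flags. The authors also deposited a value table of intensities with a floor of 15; its method, scale and centring are not given in the sources used here, and its column medians were 110.6 and 109.6 (array 1) and 96.2 and 95.1 (array 2), heterozygote first. The files of the 2 samples of an array were identical, so each array was read once. limma 3.58.1 in R 4.3.3 applied normexp (offset 50) to the mean foreground and median background intensities, then loess with control spots at weight 0; outlier spots (179 and 165) were left out and array 2 was turned to homozygote over heterozygote. Sample levels followed Aquantile scaling. Replicate spots were averaged, leaving 41174 probes, of which 33116 were named through RefSeq (GRCm38.p6) and 27788 measured. Positions are those of the probes on mm8, and which part of a gene they cover was not examined. The members and lists were chosen with earlier results of these data known. Members were named whatever their values; of the other lists, called genes and the 3 farthest from 0. The script was tested on simulated arrays. Summaries used pandas 2.3.3 and numpy 2.4.6 under Python 3.11.15, and plots matplotlib 3.10.9. Alternatives were no background correction, the software's log ratio, the value table, median centring, the mean of probes, a stricter filter, no filter and each array alone; a filter on the same genotype and the comparison with brighter genes were added after seeing the data.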

Additional observations from a re-analysis of the deposited data

How the results depend on the processing

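No paired analysis was possible because there was 1 RNA pool per genotype: replicate numbers 1 and 2 name technical dye-swap arrays of those pools, so no pairs of separate samples exist. Compression of ratios, measured only for the software's own log ratios, is a further limit. No member was called under any of the 7 alternatives that kept both arrays. The causes of the shifts below were not tested. The count of all genes called was 814 with the software's log ratio, 746 with the value table, 448 with the filter added after seeing the data and 769 to 1058 on 1 array alone. The median of the p53 targets was 0.082 with the value table, 0.32 with median centring, 0.10 with the mean of probes, 0.13 with Mdm2, Bbc3, Pmaip1 and Bax added, and 0.10 to 0.11 on 1 array alone. That of the Bcl2 family was 0.10 with the software's log ratio, 0.11 with the value table, 0.24 with median centring, 0.038 with the mean of probes and 0.043 to 0.058 on 1 array alone. For caspase and apoptosome genes it was 0.22 with median centring and 0.0074 to 0.12 on 1 array alone. All members together gave 0.075 with the software's log ratio, 0.24 with median centring and 0.057 to 0.087 on 1 array alone. Median centring moved the median of all measured genes to 0.12, and relative to it the members lay 0.12 higher. Of 224 single member values under alternatives that kept both arrays, 29 differed from the reported mean by over 1 SD. Most of the 29 came from median centring, under which most members moved by more than that. The stricter filter and no filter left every member value as it was, so the pooled count overstates how steady the values are.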
